A study of Mus musculus with 82 samples.

Results

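Epidermal growth factor (EGF) was compared with control incubation in primary mouse aortic vascular smooth muscle cells (aVSMC) after 24 h. The comparison holds 12 of the 82 libraries of the study, 6 of control and 6 of EGF cultures, and it was read over the 14653 of 55401 listed genes that passed a filter on low counts. The libraries were taken from their treatment and time labels, and each control culture has an EGF culture from the same mouse (mice 1 to 6). The cells came from the aortas of C57BL/6 mice, were grown in serum-containing medium that itself held 10 µg/L EGF, insulin, transferrin, hydrocortisone and selenite, and were kept for 24 h in medium without any supplement before the incubation. Control cultures then received that unsupplemented medium alone, and EGF cultures received it with 10 µg/L EGF. The same mice gave cultures with angiotensin II (AngII, 10 nM) and with EGF plus AngII (EGF+AngII), which share no library with the 12 above and are used here as another measurement of EGF against no EGF. RNA was sequenced after poly(A) enrichment.

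The library totals were 19170622 to 20105888 counts in control and 18785876 to 20818809 counts in EGF cultures. Levels are given as FPM, fragment counts scaled to a common library size, which are not corrected for gene length and are therefore compared between cultures and never between genes. The defining smooth muscle markers Acta2 and Myh11 were detected in every library, with Myh11 in mouse 3 at only 2.68 FPM in control and 0.61 FPM in EGF. Cnn1 was listed at 0. All genes of chromosomes 9, X, Y and MT are listed at 0 in every 24 h library, so a marker of these chromosomes at 0 is not thereby shown to be absent. Over 10 smooth muscle markers the summed level was 1607 to 7163 FPM in control and 549 to 11361 FPM in EGF cultures. Cultures of some mice also held transcripts of other cell types. The summed level of 10 endothelial markers, of which Cdh5 and Esam were listed at 0, was 9.85 to 70.5 FPM in the control cultures of mice 1 to 3, and it was 852, 515 and 2525 FPM in those of mice 4, 5 and 6. The 8 adipocyte markers summed to 30.8 to 153.4 FPM in the control cultures of mice 1 to 5 and to 2762 FPM in mouse 6, and the 8 mesothelial markers to 1111 FPM in mouse 3, 307 FPM in mouse 5 and at most 69.3 FPM in the others. Fibroblast markers summed to 624 to 3602 FPM and macrophage markers to 21.3 to 115 FPM, with Clec3b and Tyrobp, respectively, listed at 0. Cdh5 and Tyrobp lie on none of the chromosomes named above. Whether their transcripts were absent or their values were blanked is not known. In whole-culture RNA, fewer cells of a type and less RNA per cell cannot be told apart.

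EGF binds the EGF receptor (EGFR, ErbB1), a tyrosine kinase that signals through RAS and the kinase ERK among other pathways. ERK raises transcription of its own inhibitors, such as dual-specificity phosphatases and Sprouty proteins, and of ETS factors of the PEA3 group. Sustained signaling raises D-type cyclins, and the E2F factors that are then set free drive the genes of DNA replication. In smooth muscle cells, growth factors are known for driving proliferation and for lowering the contractile programme.

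In all, 4 of the 14653 genes were differentially expressed (DEG), that is, had an FDR below 0.05 by the quasi-likelihood test of edgeR as well as by the Wald test of DESeq2 and averaged 5 FPM or more in control or EGF cultures. This is 0.0273% of the genes tested. The calls come from 1 fit of all 42 libraries of 24 h with mouse as a term, and none of the 4 genes kept an edgeR FDR below 0.05 in a paired fit of the 12 libraries alone (edgeR FDR = 0.0746 for each) or passed with limma on the 6 within-mouse differences (FDR = 0.131 for Cdca7 and Ung, 0.565 for Scg2 and 0.747 for Fbln7). Cdca7, which encodes a partner of the chromatin remodeler HELLS, and Ung, the uracil-DNA glycosylase that removes uracil from DNA, rose with EGF (0.0136% of genes tested). Fbln7, a secreted fibulin of the matrix, and Scg2, a granin of secretory granules, fell (0.0136% of genes tested). Cdca7 lies on chromosome 2 at 72476159 to 72486893 (plus strand), Ung on chromosome 5 at 114130386 to 114139323 (plus strand), Fbln7 on chromosome 2 at 128862981 to 128897034 (plus strand) and Scg2 on chromosome 1 at 79434669 to 79440120 (minus strand), all in GRCm38 and all annotated as protein-coding.

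The promoters of these 4 genes are shown since they are the DEG of this comparison. They are RefSeq windows of GRCm38.p6 that run from 250 bases before to 50 bases after the start site, printed from 5′ to 3′ on the strand of the gene. Capitals mark the E2F words TTTCCCGC or TTTGGCGC or TTTGCCGC or TTTCGCGC and the cyclic AMP response element TGACGTCA, searched on both strands.
Cdca7 (chr2:72475969-72476268, plus strand): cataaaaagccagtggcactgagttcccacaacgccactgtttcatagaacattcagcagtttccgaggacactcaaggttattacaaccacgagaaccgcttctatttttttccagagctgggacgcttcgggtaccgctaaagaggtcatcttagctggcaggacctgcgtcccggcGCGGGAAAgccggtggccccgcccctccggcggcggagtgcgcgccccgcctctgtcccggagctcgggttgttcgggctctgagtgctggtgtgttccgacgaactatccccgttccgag
Ung (chr5:114130185-114130484, plus strand): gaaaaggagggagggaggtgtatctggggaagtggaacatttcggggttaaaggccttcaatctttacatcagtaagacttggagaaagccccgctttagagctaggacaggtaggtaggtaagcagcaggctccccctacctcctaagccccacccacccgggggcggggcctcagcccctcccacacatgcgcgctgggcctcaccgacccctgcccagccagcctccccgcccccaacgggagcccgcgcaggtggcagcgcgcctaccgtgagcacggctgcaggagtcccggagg
Fbln7 (chr2:128863682-128863981, plus strand): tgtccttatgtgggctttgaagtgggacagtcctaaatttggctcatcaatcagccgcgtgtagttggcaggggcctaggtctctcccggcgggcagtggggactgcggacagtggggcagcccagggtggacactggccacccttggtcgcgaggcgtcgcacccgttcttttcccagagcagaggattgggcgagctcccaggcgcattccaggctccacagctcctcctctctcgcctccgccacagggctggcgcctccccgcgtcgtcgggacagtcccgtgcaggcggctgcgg
Scg2 (chr1:79439977-79440276, minus strand): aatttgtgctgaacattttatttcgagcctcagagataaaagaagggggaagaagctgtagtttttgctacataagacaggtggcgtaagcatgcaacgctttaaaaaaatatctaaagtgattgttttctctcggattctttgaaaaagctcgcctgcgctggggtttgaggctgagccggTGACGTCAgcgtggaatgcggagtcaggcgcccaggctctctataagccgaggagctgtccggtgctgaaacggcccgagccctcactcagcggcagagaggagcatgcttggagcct

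Cdca7 holds 1 E2F word, as its reverse complement GCGGGAAA, that begins 71 bases before the start site, and Scg2 holds 1 cyclic AMP response element that begins 68 bases before it. The Ung and Fbln7 windows hold neither of these letters. The Fbln7 window begins at 128863682, after the gene start at 128862981 given above, and so lies inside the gene. The bases before that gene start were not searched. Over all 27025 genes with such a window, 2.61% hold an E2F word and 2.03% the response element.

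Cdca7 was at 7.91, 7.29, 11.8, 7.23, 4.25 and 6.70 FPM in the control cultures of mice 1 to 6 and at 41.9, 32.6, 40.4, 7.92, 12.8 and 8.14 FPM in their EGF cultures. The level was higher with EGF in all 6 mice, with the largest differences in mice 1, 2 and 3, while the EGF cultures of mice 4 and 6 stayed inside the range of the control cultures. The log2-fold change of Cdca7 was 1.35 ± 0.23 (SE of the fit of 42 libraries from 6 mice, edgeR FDR = 0.00886, DESeq2 FDR = 4.13e-05). This SE and those that follow pool residuals over all 7 groups of 24 h. They do not measure the spread of the EGF difference over the 6 mice. Ung was at 3.77, 2.41, 2.15, 4.47, 2.88 and 4.27 FPM without and at 28.8, 11.4, 12.8, 5.21, 7.44 and 7.57 FPM with EGF. All 6 EGF cultures lay above all 6 control cultures, by a log2-fold change of 1.68 ± 0.29 (SE of the fit of 42 libraries from 6 mice, edgeR FDR = 0.00886, DESeq2 FDR = 4.13e-05).

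Fbln7 was at 1249, 385, 357, 357, 359 and 39.7 FPM in control cultures and at 160.8, 59.1, 56.0, 208, 162.8 and 30.7 FPM in EGF cultures. It was lower with EGF in all 6 mice, although the control culture of mouse 6 started below every EGF culture of the others, and the log2-fold change was -1.88 ± 0.35 (SE of the fit of 42 libraries from 6 mice, edgeR FDR = 0.0127, DESeq2 FDR = 5.57e-05). Scg2 was at 1775, 41.2, 8.93, 2.14, 42.1 and 0.42 FPM without and at 302, 6.72, 1.84, 1.38, 10.8 and 0.44 FPM with EGF. Its level differed more between mice than between incubations, it was lower in 5 of 6 mice, and mouse 6 was near 0 in both. The log2-fold change of Scg2 was -1.97 ± 0.32 (SE of the fit of 42 libraries from 6 mice, edgeR FDR = 0.00629, DESeq2 FDR = 8.99e-05).

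**Figure D1:**
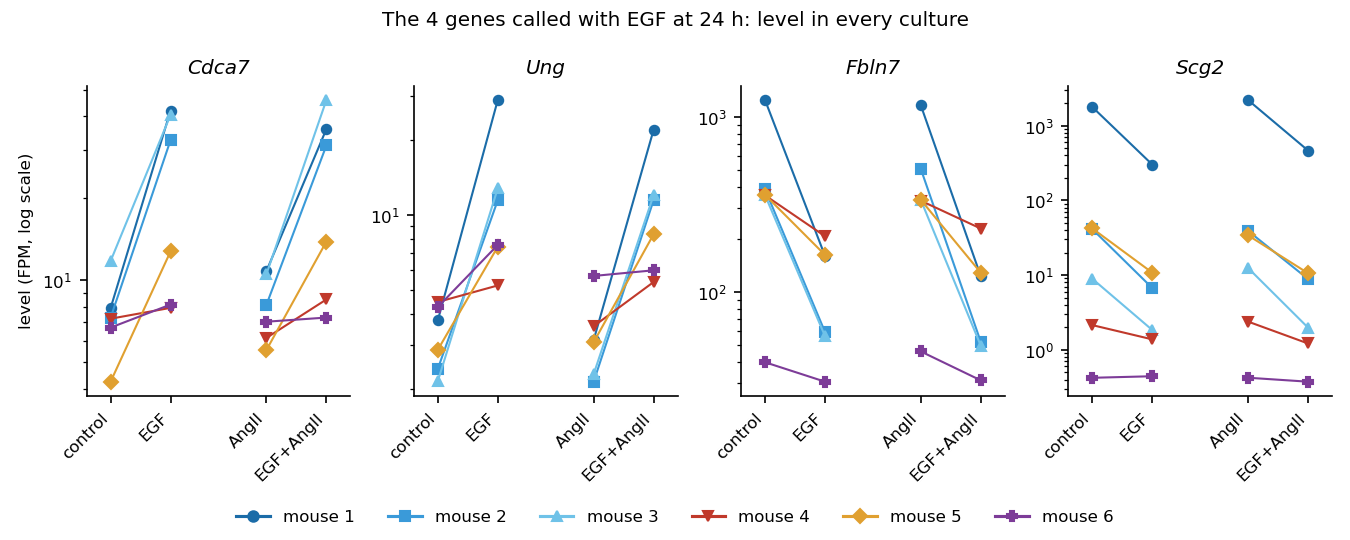
Level in FPM (log scale) of the 4 DEG in every culture, with a line from the culture without to the culture with EGF of the same mouse, for control to EGF on the left and AngII to EGF+AngII on the right of each panel. Mice 1, 2 and 3 show the steepest lines for Cdca7, Ung and Fbln7 in both pairs, and Scg2 spans 0.42 to 1775 FPM in control cultures.

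The number of calls depended on the tool and on single mice. DESeq2 alone called 264 genes (1.8% of genes tested), 137 higher (0.935%) and 127 lower with EGF (0.867%). Genes are called nominally higher or lower where p was below 0.05 before adjustment in edgeR and also in DESeq2, which held for 2546 genes (17.4%), 1143 higher (7.8%) and 1403 lower (9.57%). The level was higher with EGF in 6 of 6 mice for 1049 genes (7.16%) and lower in 6 of 6 mice for 1193 genes (8.14%). With both tools, 0 genes were called without mouse 1, 2 or 5 (nominally 1480, 1906 and 2153 genes, and 7, 9 and 56 genes by DESeq2 before the FPM minimum). There was 1 DEG without mouse 3, 16 DEG without mouse 4 and 317 DEG without mouse 6, of which 4 were the DEG above. When no mouse term was fitted, so that the pairing of cultures was not used, edgeR and DESeq2 together called 0 genes in place of 4 (nominally 834 genes, and 1 gene by DESeq2 before the FPM minimum).

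The mice differed in how far their cultures moved with EGF. The share of genes tested whose level differed more than 2-fold between the EGF and the control culture was 13.8%, 7.06% and 9.54% in mice 1, 2 and 3, 1.77% in mouse 4, 3.36% in mouse 5 and 0.621% in mouse 6. The AngII and EGF+AngII cultures of the same mice, which are other dishes, gave 16.1%, 14.5%, 9.98%, 0.696%, 3.44% and 0.696%. Taking the pairs of a mouse as repeats of its response, a moderated F test over mice with limma found that the log2 difference with EGF differed between mice for 3162 genes (21.6% of genes tested) at an FDR under 0.05. Across genes, which are not independent replicates, the EGF differences of a mouse correlated with those of its AngII cultures with r = 0.86, 0.73 and 0.81 in mice 1, 2 and 3, 0.27 in mouse 4, 0.61 in mouse 5 and 0.02 in mouse 6. Between the EGF differences of 1 mouse and the AngII cultures of another, r was -0.04 to 0.74 (median 0.28 over 30 pairs), and mouse 4 had a higher r with the AngII cultures of mice 1, 2 and 6 (0.48, 0.55 and 0.40) than with its own, although the F test takes both pairs of a mouse as repeats. Among the EGF differences against control, r was 0.62 to 0.73 between mice 1, 2 and 3 and -0.04, 0.01 and 0.15 between mice 4, 5 and 6. Egfr itself was at 153.4, 227 and 226 FPM in the control cultures of mice 1, 2 and 3, at 33.6 FPM in mouse 4, 137 FPM in mouse 5 and 20.2 FPM in mouse 6. The endothelial marker Pecam1, chosen after its values were seen, was at 0.42, 0.67 and 5.88 FPM in mice 1 to 3 and at 335, 214 and 864 FPM in mice 4 to 6. Mice 4 to 6, with the smaller shares of genes over 2-fold, were also those with the higher endothelial marker levels. Mice 4 and 6 had the lowest Egfr levels. By the median absolute log2 difference with EGF, mouse 4 lay above mouse 2 (0.40, 0.26, 0.31, 0.27, 0.23 and 0.13 in mice 1 to 6). In the AngII cultures this median was 0.46, 0.46, 0.32, 0.18, 0.22 and 0.19. Mouse 3, with large differences, had the highest fibroblast (3602 FPM) and mesothelial (1111 FPM) marker sums of the control cultures. The part of Egfr and of other cell types in the response was not tested.

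**Figure D2:**
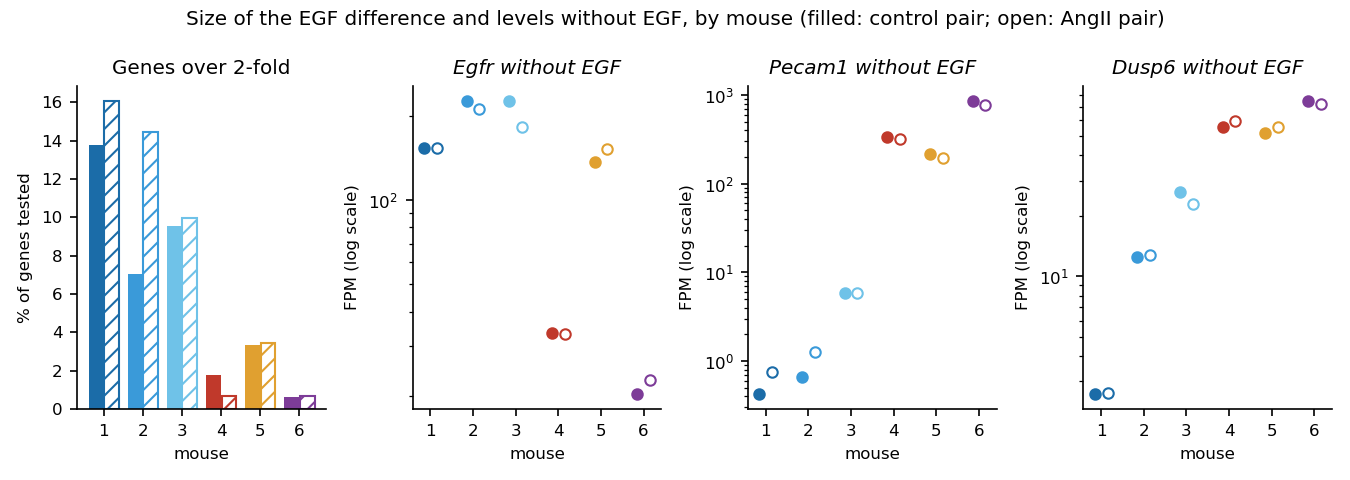
From left to right, for mice 1 to 6, the percentage of genes tested whose level differed more than 2-fold with EGF (filled bars for EGF against control, hatched bars for EGF+AngII against AngII), and the level without EGF in FPM (log scale) of Egfr, Pecam1 and Dusp6 (filled points control, open points AngII cultures). Mice 4 and 6, with at most 1.77% of genes over 2-fold, had the lowest Egfr levels, and Dusp6 without EGF was lowest in mouse 1 at 2.58 FPM.

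For several ERK feedback genes, the mouse with the lowest control level had the largest difference, although a difference contains the control level and is not independent of it. Dusp6, a phosphatase that inactivates ERK, was at 2.58, 12.5, 26.2, 55.2, 52.0 and 75.0 FPM in the control cultures of mice 1 to 6 and at 26.7, 70.7, 121, 66.7, 94.6 and 82.8 FPM with EGF. It was higher with EGF in every mouse, with a log2 difference of 3.14 in mouse 1 and 0.14 in mouse 6, and the control level of mouse 1 was the lowest and that of mouse 6 the highest. For Dusp6 the log2-fold change was 1.43 ± 0.32 (edgeR FDR = 0.071, DESeq2 FDR = 0.00397). Dusp4, which acts on nuclear MAP kinases, was at 6.65, 20.4, 26.5, 31.3, 38.1 and 85.8 FPM without and at 76.4, 134, 153.6, 39.3, 78.4 and 85.2 FPM with EGF (log2-fold change 1.63 ± 0.34, edgeR FDR = 0.0572, DESeq2 FDR = 0.00115). The PEA3 factors differed between mice in the same way, Etv4 from 0.90 to 57.7 FPM in mouse 1 and from 22.3 to 28.0 FPM in mouse 6, and Etv5 from 6.65 to 67.7 FPM and from 37.9 to 43.1 FPM. Lrig1, a membrane protein that lowers EGFR abundance, was at 76.9 to 118 FPM in all control cultures and at 296, 383 and 355 FPM with EGF in mice 1 to 3, compared with 80.4, 101.3 and 97.2 FPM in mice 4 to 6. Of the 25 genes of the ERK and EGFR feedback list, 15 were nominally higher (against 7.8% of all genes tested) and 0 nominally lower. DESeq2 alone called 8 as higher (against 0.935%), and 8 were higher in 6 of 6 mice (against 7.16%). None of them passed both tools (0 genes). The list's median log2 difference was 1.36, 0.82, 0.88, 0.03, 0.35 and 0.05 in mice 1 to 6, beside a median of -0.02 over all genes tested.

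The list of EGFR ligands and receptors had a median log2 difference of 0.01 over 10 genes tested (0.0993 without mouse 1). Of these 10 genes, 1 was nominally higher and called by DESeq2 alone (against 7.8% and 0.935% of all genes tested), Ereg, the ligand epiregulin, which was higher in all 6 mice, from 2.52, 9.03, 2.89, 25.9, 10.8 and 23.1 FPM to 15.3, 19.2, 11.6, 40.9, 23.6 and 29.2 FPM (log2-fold change 1.20 ± 0.29, edgeR FDR = 0.071, DESeq2 FDR = 0.0116). Egfr had a log2-fold change of 0.03 ± 0.23 (edgeR FDR = 0.96), with differences of either sign between 0.52 in mouse 1 and -0.33 in mouse 3. Erbb2, the preferred partner of EGFR, was lower in 6 of 6 mice by at most 0.37 on the log2 scale and did not pass (edgeR FDR = 0.344). Among receptors for the other agonists, Agtr1a, the main AngII receptor of mouse smooth muscle, was at 19.7 FPM in the control culture of mouse 1 and at most at 3.18 FPM in the others, and its log2-fold change of -1.35 ± 0.53 did not pass (edgeR FDR = 0.168). The thromboxane receptor Tbxa2r was at 49.5 to 187.6 FPM without and 14.4 to 97.7 FPM with EGF (log2-fold change -0.80 ± 0.32, edgeR FDR = 0.174), and Agtr1b was below 0.5 FPM throughout and was not tested.

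Of 22 genes of G1 cyclins, E2F factors and CDK inhibitors, 11 were nominally higher and 2 lower (against 7.8% and 9.57% of all genes tested). In 6 of 6 mice, 5 were higher and 2 lower (against 7.16% and 8.14%), and the median log2 difference was 0.32. Cyclin D1 (Ccnd1), the G1 cyclin downstream of ERK, was at 74.7, 264, 155.2, 356, 187.3 and 480 FPM in control and at 262, 551, 512, 421, 366 and 492 FPM in EGF cultures. All EGF cultures thus lay between 262 and 551 FPM, whereas the control cultures ranged from 74.7 to 480 FPM. Ccne1, the cyclin of the step into S phase, was at 4.73, 13.2, 5.41, 14.7, 7.39 and 16.3 FPM without and at 40.9, 27.7, 26.3, 15.9, 18.3 and 17.4 FPM with EGF (log2-fold change 1.21 ± 0.32, edgeR FDR = 0.0834, DESeq2 FDR = 0.0225). Its partner kinase Cdk2 was higher in 6 of 6 mice (log2-fold change 0.65 ± 0.15, edgeR FDR = 0.071, DESeq2 FDR = 0.0116). The inhibitor of this kinase p27 (Cdkn1b) was lower in 6 of 6 mice, from 219, 233, 116, 95.8, 134 and 70.9 FPM to 126, 135, 83.7, 88.9, 94.5 and 69.1 FPM (log2-fold change -0.47 ± 0.13, edgeR FDR = 0.0921, DESeq2 FDR = 0.0333).

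Of 47 DNA replication genes tested, 44 were nominally higher, 22 were called by DESeq2 alone as higher and 30 were higher in 6 of 6 mice. The shares of all genes tested were 7.8%, 0.935% and 7.16%. Of the 47 genes, 0 passed both tools. Mcm6, a subunit of the replicative helicase, was at 37.0, 51.7, 46.9, 90.3, 58.1 and 71.2 FPM without and at 172.5, 113, 136, 110, 108 and 87.0 FPM with EGF. Every EGF culture but that of mouse 6 was above all control cultures (log2-fold change 0.95 ± 0.23, edgeR FDR = 0.071, DESeq2 FDR = 0.0178). Pola2, a subunit of the polymerase that starts each new strand, was at 21.0, 12.5, 24.5, 18.1, 11.96 and 17.4 FPM without and at 59.4, 27.2, 54.2, 18.6, 25.0 and 21.0 FPM with EGF (log2-fold change 0.83 ± 0.19, edgeR FDR = 0.071, DESeq2 FDR = 0.0114). Wdhd1, which couples the helicase to that polymerase, was higher by 2.79 on the log2 scale in mouse 1 and by 0.53 in mouse 6. Among 18 genes of nucleotide supply and uracil removal, 13 were nominally higher, among them Ung (against 7.8% of all genes tested). Tyms, which makes thymidylate, was higher in 6 of 6 mice, at 13.7 to 38.7 FPM in control and at 35.3 to 87.0 FPM in EGF cultures. Rrm2, the regulated subunit of ribonucleotide reductase, went from 18.4 to 178.7 FPM in mouse 1 and from 69.2 to 89.9 FPM in mouse 6.

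Cdca7 belongs to a list of 26 genes of DNA repair and replication-coupled chromatin, of which 25 were nominally higher, 12 were called by DESeq2 alone as higher and 1 was a DEG (against 7.8%, 0.935% and 0.0136% of all genes tested, higher with EGF). Uhrf1, which guides maintenance methylation to new DNA, was at 8.03, 9.60, 20.0, 36.0, 23.0 and 44.5 FPM without and at 206, 92.1, 137, 42.3, 58.4 and 48.8 FPM with EGF. The control cultures of mice 1 to 3 had the lowest levels and their EGF cultures the highest. Tonsl, a reader of newly assembled histones, went from 4.47 to 8.98 FPM in control to 8.45 to 34.7 FPM in EGF cultures, and Chaf1b, a chromatin assembly factor, from 5.80 to 18.6 FPM to 17.4 to 51.5 FPM.

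Of the lists, the mitotic genes had the largest median difference in each of mice 1 to 3. The median log2 difference over 34 mitotic genes was 4.54, 2.71, 2.98, 0.33, 1.04 and 0.14 in mice 1 to 6, a mean of 1.96 ± 1.74 (SD, n = 6 mice). Of these 34 genes, 33 were nominally higher (against 7.8% of all genes tested), 1 was called by DESeq2 alone as higher (against 0.935%) and 0 passed both tools. For 34 the difference itself differed between mice by the F test (against 21.6% of all genes tested). Foxm1, the factor that drives mitotic genes, was at 9.52, 8.16, 12.8, 16.1, 14.3 and 23.5 FPM without and at 127, 48.3, 83.1, 19.7, 32.3 and 27.1 FPM with EGF (log2-fold change 1.49 ± 0.45, edgeR FDR = 0.101, DESeq2 FDR = 0.0418). Mki67, the proliferation marker of the list, chosen after its values were seen, was at 2.70, 5.65, 10.4, 16.2, 23.8 and 42.3 FPM in control and at 150.6, 82.3, 84.2, 32.4, 59.8 and 49.0 FPM in EGF cultures. Mouse 1 was lowest without and highest with EGF, and mouse 6 was highest without and below 4 other mice with EGF.

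The start regions of these lists were searched for motifs of cell cycle factors. An E2F word was present in 14 of the 38 DNA replication genes with a RefSeq window (36.8%) and in 7 of 19 repair and chromatin genes (36.8%). It was present in 1 of 17 nucleotide supply genes (5.88%) and in 1 of 28 mitotic genes (3.57%). Other lists had 4 of 26 for MYC and ribosome biogenesis (15.4%), 1 of 17 for FOXO and quiescence (5.88%) and 1 of 16 for cholesterol and fatty acid synthesis (6.25%). ERK feedback and elastic fibre had 0. The share was 2.61% of all 27025 genes with a window. The shares of all genes here include genes that were not tested, whereas the lists hold tested genes only. The letters TTTGAA, 1 form of the cell cycle homology region, were present in 20 of 28 mitotic genes (71.4%), 7 of 38 DNA replication genes (18.4%) and 20.2% of all genes, and CCAAT in 21 of 28 mitotic genes (75.0%), 63.2% of DNA replication genes, 63.2% of repair and chromatin genes, 14 of 16 genes of cholesterol and fatty acid synthesis (87.5%) and 41.1% of all genes. CCAAT was also present in 58.8% of FOXO and quiescence genes and in 52.9% of both ERK feedback and nucleotide supply genes. The share was 40.0% for elastic fibre and 19.2% for MYC and ribosome biogenesis genes. Both strands were searched, and none of these words contains another. A match says that the letters are present in the window and not that a factor was bound.

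**Figure D3:**
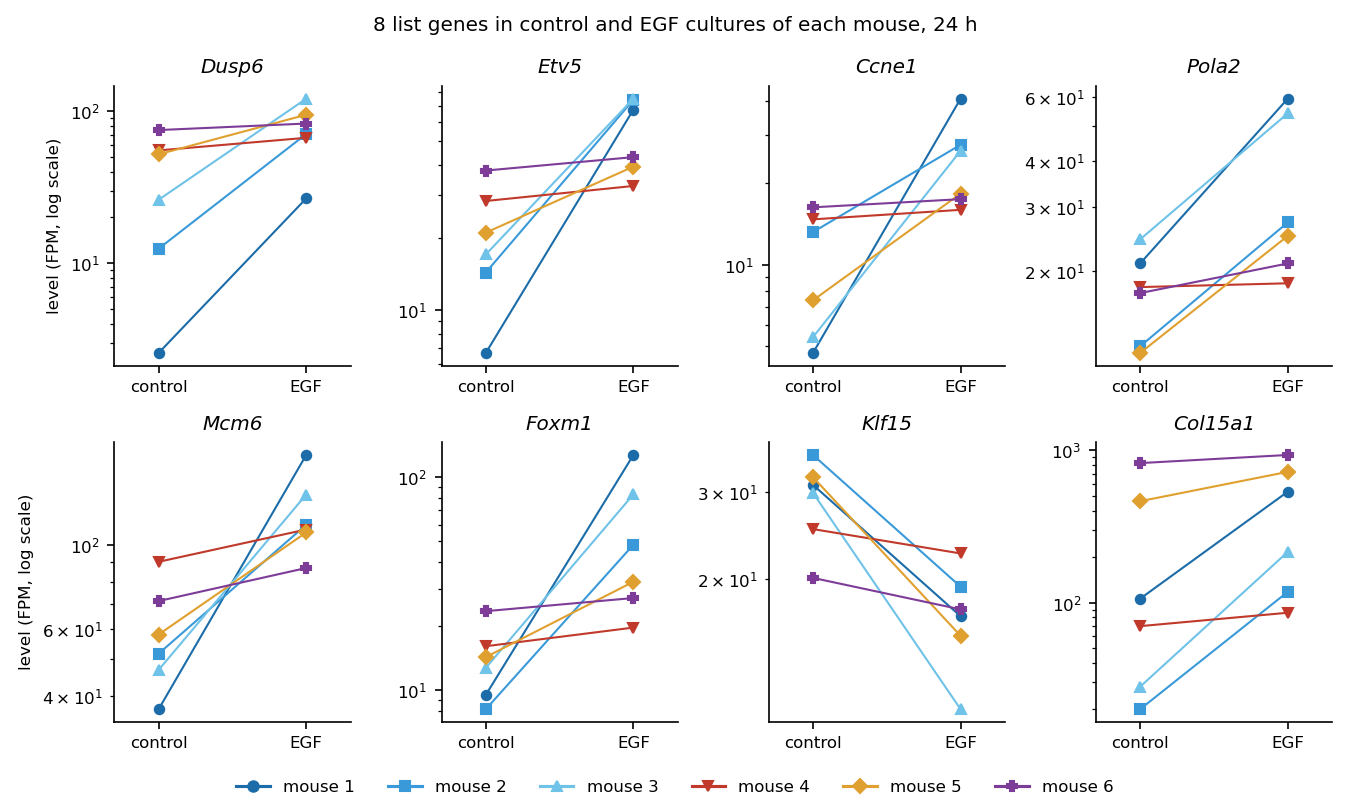
Level in FPM (log scale) of 8 genes in the control and the EGF culture of each mouse, joined by a line. For Dusp6, Etv5, Ccne1, Mcm6 and Foxm1, mouse 1 had the lowest or nearly the lowest control level and a steep line, mice 4 and 6 had nearly flat lines, and Klf15 was lower with EGF in all 6 mice.

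Of 18 genes of FOXO factors and quiescence, 6 were nominally lower (against 9.57% of all genes tested) and 0 were nominally higher. DESeq2 alone called 3 as lower (against 0.867%), and 6 were lower in 6 of 6 mice (against 8.14%). Klf15, a metabolic regulator that FOXO and glucocorticoid signals raise, was at 31.1, 35.8, 29.9, 25.2, 32.2 and 20.1 FPM without and at 16.8, 19.3, 10.8, 22.5, 15.3 and 17.3 FPM with EGF (log2-fold change -0.79 ± 0.22, edgeR FDR = 0.088, DESeq2 FDR = 0.0318). Txnip, an inhibitor of glucose uptake and of thioredoxin, was lower in 6 of 6 mice, from 1849 to 408 FPM in mouse 1 and from 264 to 255 FPM in mouse 6. Pik3ip1, an inhibitor of PI3 kinase, was lower in 6 of 6 mice, with a log2 difference of -2.06 in mouse 1 and -0.08 in mouse 6.

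Further genes with a like sign in 6 of 6 mice and the lowest edgeR p were Mthfd2, an enzyme of mitochondrial folate metabolism, Fkbp5, a co-chaperone of steroid receptors, and Arl6ip6, all higher, and Gyg, Fuz, Plppr3, Inpp5k, Tmem44, C2, Rnf122, H2bc8 and Fgf18, all lower. Their edgeR FDR were 0.0572 to 0.0802 and DESeq2 called each of them. Gyg, the protein on which glycogen is started, was at 194, 191, 109, 279, 218 and 83.5 FPM without and at 65.1, 73.5, 41.2, 220, 111 and 82.6 FPM with EGF (log2-fold change -0.95 ± 0.20). Fgf18, a fibroblast growth factor, was at 18.1, 18.8, 33.5, 55.8, 13.6 and 8.86 FPM without and at 0.69, 1.58, 4.77, 31.5, 3.95 and 8.05 FPM with EGF, the largest log2-fold change of the named genes (-2.37 ± 0.60). Arl6ip6 was the most even of them, with log2 differences of 0.36 to 1.09.

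Few genes of the contractile and matrix lists were called. Of 21 contractile genes, 0 were called by DESeq2 or by both tools, 1 was nominally lower (Itga8, an integrin of smooth muscle, against 9.57% of all genes tested) and the median log2 difference was -0.41, -0.64, -0.79, -0.10, 0.27 and 0.14 in mice 1 to 6. Acta2, smooth muscle actin and a member of this list, was at 3335, 1329, 1149, 2300, 4949 and 2547 FPM without and at 1392, 696, 352, 1633, 8497 and 3305 FPM with EGF. It was lower in mice 1 to 4 and higher in mice 5 and 6, and the difference itself differed between mice (limma F test, FDR = 0.0012). The regulatory light chain gene Myl9 showed the same order of signs, lower in mice 1 to 4 and higher in mice 5 and 6 (FDR = 0.0012). Of 22 elastic fibre genes, 5 were nominally lower (against 9.57% of all genes tested), among them Fbln7 and the crosslinking enzyme Lox, which was at 1162, 669, 1553, 579, 1404 and 985 FPM without and at 343, 215, 456, 642, 1077 and 1006 FPM with EGF. The log2 difference of Lox was -1.77 to -1.63 in mice 1 to 3 and -0.38 to 0.15 in mice 4 to 6, and it did not pass (log2-fold change -0.86 ± 0.31, edgeR FDR = 0.142). Among 18 collagens, Col15a1, a collagen of basement membrane zones, was higher in 6 of 6 mice, from 106, 19.9, 28.0, 70.0, 463 and 825 FPM to 535, 118, 215, 85.7, 722 and 933 FPM (log2-fold change 1.80 ± 0.44, edgeR FDR = 0.071, DESeq2 FDR = 0.0101). The small leucine-rich proteoglycans were split, with Ogn lower in 5 of 6 mice and Lum higher in mice 1, 2 and 6 and lower in the others, and 0 of 9 were called.

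All 24 genes of cholesterol and fatty acid synthesis had a positive log2-fold change, against 6765 of all 14653 genes tested. Of the 24, 3 were nominally higher and 6 were higher in 6 of 6 mice (against 7.8% and 7.16% of all genes tested). None was called by DESeq2 (0 genes). The list median was 1.94 in mouse 1, 0.61 to 0.76 in mice 2, 3 and 5, 0.05 in mouse 4 and -0.05 in mouse 6. Of 32 genes of MYC and ribosome biogenesis, 11 were nominally higher and 10 were higher in 6 of 6 mice (against 7.8% and 7.16% of all genes tested), with a list median of 0.27 on the log2 scale. For ATF4 and amino acid supply these counts were 8 and 4 of 16 genes, with Mthfd2 called by DESeq2 alone. Glycolysis had a list median of 0.09, 0 genes called and 1 gene of 18 nominally lower, and its median was 0.0364 without mouse 3, 0.0437 without mouse 5 and 0.157 without mouse 4. Among 16 cytokines and chemokines, Ccl2, which attracts monocytes, was at 3.23, 17.6, 22.0, 106, 55.0 and 76.0 FPM without and at 26.8, 94.9, 62.0, 141, 53.6 and 79.7 FPM with EGF, and 7 genes of the list were nominally higher and 1 lower, against 7.8% and 9.57% of all genes tested. Of 19 matrix proteases and inhibitors, 4 were nominally higher, with the urokinase gene Plau at 42.1 to 173.7 FPM in control and 153.4 to 263 FPM in EGF cultures, and 3 were nominally lower, with the stromelysin gene Mmp11 at 172.9 to 741 FPM and 142 to 276 FPM, beside the same shares of all genes. For 11 genes of the insulin-like growth factor axis and 18 of the interferon response, 2 and 1 were nominally lower (against 9.57% of all genes tested) and 0 were nominally higher, and 5 of the 18 interferon genes were lower in 6 of 6 mice (against 8.14%).

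**Figure D4:**
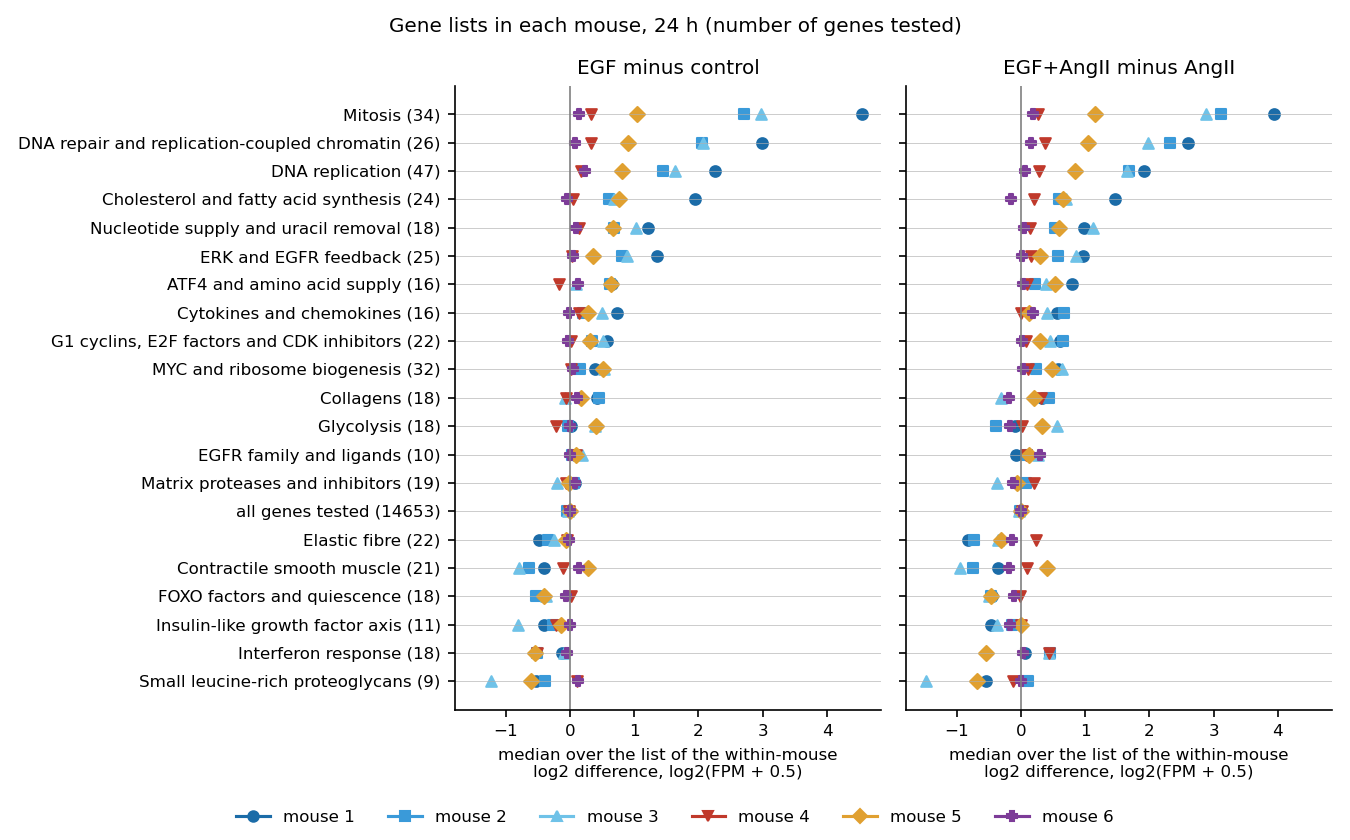
Median log2 difference with EGF over the tested genes of each list (number in parentheses), 1 point per mouse, for EGF minus control (left) and EGF+AngII minus AngII (right). The mitotic list spans 0.14 in mouse 6 to 4.54 in mouse 1 on the left, mice 4 and 6 lie near 0 for nearly every list, and the medians of all genes tested lie within 0.04 of 0 on the left.

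In the AngII cultures, EGF gave 463 DEG (3.16% of genes tested), 238 higher (1.62%) and 225 lower (1.54%). A paired fit of these 12 libraries alone called 0 genes with edgeR and DESeq2 together (nominally 4059 genes, 2197 by DESeq2 before the FPM minimum), and limma on the within-mouse differences called 0 (4672 at an unadjusted p below 0.05, lowest FDR = 0.104). The 4 DEG of EGF against control were among them with the same sign, and so were 69.7% of the 264 genes that DESeq2 alone called in EGF against control (39.7% of the 463). Cdca7 was at 10.8, 8.13, 10.5, 6.15, 5.55 and 7.05 FPM with AngII and at 35.8, 31.2, 45.8, 8.50, 13.9 and 7.30 FPM with EGF+AngII. Scg2, again highest in mouse 1, was at 2196, 39.0, 12.4, 2.38, 33.99 and 0.42 FPM and at 464, 8.85, 1.98, 1.21, 10.6 and 0.37 FPM. By list, 19 of 47 DNA replication genes, 9 of 26 repair and chromatin genes, 8 of 25 ERK feedback genes and 0 of 34 mitotic genes were DEG and higher in this comparison. The interferon response had list medians of opposite sign, -0.38 for EGF against control and 0.22 in the AngII cultures. The count of 463 was 0 without mouse 1, 2, 3 or 5 (edgeR and DESeq2 together, nominally 2112 to 4166 genes, and by DESeq2 before the FPM minimum up to 1430 genes, without mouse 3), 552 without mouse 4 and 859 without mouse 6. That EGF acted differently with and without AngII was tested as an interaction, and 0 genes passed (edgeR and DESeq2 each 0, nominally 50 genes).

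Other cultures of the mice held the thromboxane analog U46619 (1 µM). The median log2 difference of the mitotic list between EGF+U46619 and U46619 cultures was 0.57, 0.30, 1.20, 0.36, 0.56 and -0.08 in mice 1 to 6. U46619 alone had Cdca7 at 37.0, 26.2, 28.8, 11.2, 10.8 and 9.34 FPM, in mice 1 to 3 above every control culture. As an interaction, 0 genes passed both tools (edgeR 0, DESeq2 3, nominally 437 genes).

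After 48 h, EGF and control were compared in 10 other culture sets, 5 in each of 2 batches, which came from 5 mice (1 mouse gave 5 of the sets and another gave 2). Both batches were scaled together, apart from the 24 h libraries, and no model was fitted to them. Their log2 differences are set beside the 24 h values without a test of the difference. In 1 set of the batch with AngII, the fibroblast marker list differed by 2.94 and the endothelial list by -2.21 on the log2 scale between the EGF and the control culture, more than in any other set. The mitotic list had a median log2 difference of -1.30 to 1.17 over the 10 sets and -0.07 to 1.17 over the 5 sets of the other batch. In those 5 sets, of 4 mice and thus with repeat cultures of 1 mouse in each SD, Scg2 was lower with EGF in 5 sets (-1.53 ± 0.85, SD) and Fbln7 in 5 sets (-0.93 ± 0.57, SD), Cdca7 was higher in 5 sets (0.57 ± 0.57, SD) and Ung in 3 sets (0.20 ± 0.65, SD), all as log2 differences. The 5 sets of the batch with AngII, also with repeat cultures of 1 mouse, did not show these mean differences. Their means were 0.49 ± 2.95 (SD) for Scg2 and 0.49 ± 1.93 (SD) for Fbln7. For Cdca7 the mean was 0.006 ± 0.54 (SD) and for Ung -0.32 ± 0.60 (SD). The set with the differing marker lists had 5.69 for Scg2 and 3.88 for Fbln7. Over all 10 sets, Scg2 and Fbln7 were each lower in 8, Cdca7 was higher in 7 and Ung in 5 sets.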

How the data were processed

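The authors aligned paired-end reads to mm10 with HISAT2 2.1.0 and used featureCounts for Ensembl genes with multi-mapping reads included, so that near-identical genes can hold each other's reads. The deposited values are these whole-number counts, without normalization or filtering. The 7075 genes of chromosomes 9, X, Y and MT are listed at 0 in every 24 h library, which is not taken as their expression, and were not tested. Total counts were 16483529 to 20818809 in the 24 cultures compared, which limits the precision of genes under a few FPM.

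Counts were analysed in R 4.3.3 (DESeq2 1.42.0, edgeR 4.0.16, limma 3.58.1) and drawn with Matplotlib 3.10.9 in Python 3.11.15. All 42 libraries of 24 h were fitted together with mouse and treatment as terms, as in the study's methods. Those methods do not say which edgeR test was used, and the likelihood ratio test with DESeq2 gave 242 DEG in place of 4. The counts here are not those of the study, and how far the choice of test accounts for this was not tested. A DEG had a Benjamini-Hochberg FDR below 0.05 in edgeR's quasi-likelihood test (TMM scaling, 14653 genes that passed filterByExpr at 24 h) as well as in the Wald test of DESeq2, averaged 5 FPM or more in either group and also passed filterByExpr at 48 h (14528 genes passed at both times). DESeq2 alone means the second test with the same FPM minimum and filter. Within-mouse log2 differences used log2(FPM + 0.5), and a list median is taken over its tested genes. Standard errors were derived from the log2-fold change and edgeR's F statistic in the fit of all 42 libraries. They thus pool residuals over all treatments and do not measure the spread of the EGF difference between mice. Whether the EGF difference differed between mice was tested with limma's moderated F test on the 12 within-mouse differences (EGF minus control and EGF+AngII minus AngII). This test was added after the data were seen, and it takes both differences of a mouse as repeats.

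Labels give the mouse of each culture. The deviations of the control and EGF culture of a mouse from their group means correlated across genes with r of at least 0.770. The labels do not say whether the cultures of 1 mouse were handled apart beyond that.

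The genes compared and the gene lists were chosen with earlier results of these data known. Named genes were the DEG, the receptor genes Egfr, Agtr1a, Agtr1b and Tbxa2r, the 10 genes with the lowest edgeR p in each direction among those with 1 sign in 6 of 6 mice and at least 5 FPM, and up to 4 genes with the lowest edgeR p of each list. Acta2, Mki67, Pecam1 and Myh11 fall outside the rule and were named after their values were seen. Some genes that the rule names are not reported here. Promoter windows come from RefSeq (GRCm38.p6), gene positions from GENCODE. The alternatives tried are given with their effect in the closing section.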

Additional observations from a re-analysis of the deposited data

Results flagged for a closer look

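In 3 of 117 groups of 6 within-mouse log2 differences of named genes, 1 mouse stood apart from the other five by the 95% criterion of Dixon's test, which chance exceeds in about 1 group in 20. Fkbp5, a co-chaperone of steroid receptors, differed by 1.504 in mouse 1 and by 0.22 to 0.69 in the others. Tgfa, an EGFR ligand, differed by -1.35 in mouse 1 and by 0.04 to 0.34 in the others. Elovl6, an elongase of fatty acid synthesis, differed by -0.19 in mouse 6 and by 1.02 to 1.47 in the others. Mouse 1 had the largest and mouse 6 the smallest share of genes over 2-fold with EGF. The part of the mice's cell composition in these values was not tested.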

How the results depend on the processing

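The number of DEG for EGF against control (4) and for EGF+AngII against AngII (463) depended on the test. DESeq2 alone gave 264 and 1004, and the likelihood ratio test of edgeR in place of the quasi-likelihood test gave 242 and 938. Without a filter on low counts 142 DEG were found for EGF against control, and with at least 10 counts in every library 707 DEG were found for EGF+AngII against AngII. Without the replicate block, edgeR and DESeq2 called 0 and 0 genes (nominally 834 and 1301, by DESeq2 before the FPM minimum 1 and 96). With the block but only the 2 groups compared, they called 0 and 0 (nominally 3558 and 4059, by DESeq2 1827 and 2197), and limma on the within-mouse differences called 0 and 0 (4023 and 4672 at an unadjusted p below 0.05). Averaged over the absence and presence of AngII, 3015 DEG were found for EGF, whereas limma on the averaged within-mouse differences, an alternative chosen after seeing the data, called 0 genes (5423 at an unadjusted p below 0.05). Leaving out 1 mouse gave 0 to 317 DEG for EGF against control, 0 to 859 for EGF+AngII against AngII, and 1691 (without mouse 1) to 3654 genes whose difference differed between mice, in place of 3162. The median of the list of EGFR ligands and receptors was 0.0108 and lay between 0.00823 and 0.0993 with 1 mouse left out, and that of the matrix proteases was -0.0377 and lay between -0.0718 and 0.110, the highest in both without mouse 1. Other list medians that moved by over 1.5 times with 1 mouse left out were those of collagens (0.257, and 0.168 without mouse 2), elastic fibre (-0.25, and -0.123 without mouse 1), small leucine-rich proteoglycans (-0.36, and -0.145 without mouse 3) and glycolysis (0.0922, and 0.0364 without mouse 3, 0.0437 without mouse 5 and 0.157 without mouse 4). List medians also depended on the constant added before the log. With log2(FPM + 5), the insulin-like growth factor axis had -0.114 in place of -0.385, and repair and chromatin genes 0.773 in place of 1.42. Cytokines and chemokines had 0.156 in place of 0.326 (0.199 over members with at least 5 FPM). Small leucine-rich proteoglycans had -0.214 and elastic fibre -0.159 with that constant. The causes were not tested. No called log2-fold change of a named gene turned its sign under the alternatives run, and the 4 DEG lost their call without the block, in the fit of 2 groups, with limma and without mouse 1, 2 or 5, and, except for Scg2, without mouse 3. Scg2 was not tested with at least 10 counts in every library. At 6 mice per group and these totals, levels near or under 1 FPM rest on few counts.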
